A study of Mus musculus with 12 samples.

Results

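The cells described here are intestinal organoid cells that carried MHC class II mRNA after culture with regulatory T cells (Treg). They were taken from the cells labelled with the hashtags Treg or Treg_aIL10R as those with at least 5 UMIs (unique molecular identifiers, counted mRNA molecules) summed over H2-Aa, H2-Ab1, H2-Eb1 and Cd74, and they are called positive cells below. Of 4188 co-culture cells with these hashtags, 1685 (40.2%) were positive, which is 14.1% of the 11911 cells kept over all conditions. The other 2503 co-culture cells, with 0 to 4 UMIs of the 4 genes, came from the same wells and libraries and are called below-5 cells. Since the cells were selected on the UMIs of the 4 genes, these levels are given as a description and carry no test.

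Passaged small-intestinal organoids of wild-type BALB/c mice were cultured alone (Ctrl), with allogeneic CD25high FoxP3-GFP+ Treg cells (Treg), with Treg cells and antibodies at 10 µg/ml against the IL-10 receptor (Treg_aIL10R), against IFNγ (Treg_aIFNg) or against both (Treg_aIFNg_aIL10R), or without T cells but with recombinant IFNγ at 0.25 ng/ml and IL-10 at 10 ng/ml (IFNg_IL10). Co-cultures held 100000 T cells per well with CD3/CD28 beads and IL-2 at 30 U/ml, and the plates were tilted so that T cells and organoids were not in direct contact. On day 4, cells of the 6 conditions were labelled with barcoded hashtag antibodies, live EpCAM+ cells were sorted and pooled, and 3' single-cell libraries were made. The 3 replicates were separate experiments, which nothing used here ties to separate mice, so that p-values measure the spread between experiments. Organoids hold epithelium only and the sort removed EpCAM-negative cells, so these cells represent an epithelium without stroma. The effect of Treg cells here is that of bead-activated cells, and a blocking antibody was present throughout Treg_aIL10R.

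Libraries 1 to 5 held 148214378, 128917456, 140305041, 223155304 and 149972247 UMIs in 7756, 7116, 5387, 7995 and 7731 barcodes. After the filters 2202, 1929, 1979, 3550 and 2251 cells with 1 hashtag remained. Replicate 1 was libraries 1 and 2, replicate 2 was libraries 3 and 4, and replicate 3 was library 5. At most 0.337% of a library's barcodes also occurred in another library, and of the kept co-culture cells no pair of libraries shared more than 1 barcode. Replicate 2 stood apart, since it gave 75.3% of all positive cells, whereas replicate 1 gave 9.1% and replicate 3 gave 15.6%. All comparisons were therefore made over the 3 replicates and not over cells.

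MHC class II molecules present peptides of mostly extracellular origin to CD4+ T cells. H2-Aa and H2-Ab1 encode the chains of I-A, H2-Eb1 the beta chain of I-E, and Cd74 the invariant chain that escorts them until H2-DM exchanges its fragment for a peptide. Expression outside professional antigen-presenting cells is set by the co-activator CIITA, which IFNγ induces through IRF1. IFNγ also raises MHC class I presentation and the immunoproteasome, and intestinal epithelium, its Lgr5+ crypt base stem cells included, is a known class II expressing tissue under IFNγ.

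Promoters of 4 genes are printed, each with a motif match: H2-Aa and H2-Eb1 are among the genes that chose the cells. Irf1 and Psmb8 were higher both in positive cells (against below-5 cells) and in below-5 cells (against control cells). No result below rests on these sequences. Each run is 300 bases from RefSeq (build GRCm38.p6, 250 bases before to 50 after the annotated start), read 5′ to 3′ on the gene's strand. H2-Aa lies at chr17:34287774-34288073 (minus strand) and H2-Eb1 at chr17:34305617-34305916 (plus strand), with the letters CTGATTGG, those of the Y box of class II promoters, in capitals. Irf1 lies at chr11:53769764-53770063 (plus strand) and Psmb8 at chr17:34197945-34198244 (plus strand), with a match to TTCNNNGAA, the letters of an IFNγ-activated (GAS) element, in capitals. The GENCODE span of Psmb8 (given below) begins upstream of the RefSeq start, so its run lies inside that span, whereas the other 3 runs end shortly after the start in both annotations.
H2-Aa: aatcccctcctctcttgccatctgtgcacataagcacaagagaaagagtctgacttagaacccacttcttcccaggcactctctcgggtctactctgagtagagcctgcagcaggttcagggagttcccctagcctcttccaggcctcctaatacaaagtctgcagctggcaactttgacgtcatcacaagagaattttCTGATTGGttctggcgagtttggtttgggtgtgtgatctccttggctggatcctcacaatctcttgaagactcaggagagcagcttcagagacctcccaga
H2-Eb1: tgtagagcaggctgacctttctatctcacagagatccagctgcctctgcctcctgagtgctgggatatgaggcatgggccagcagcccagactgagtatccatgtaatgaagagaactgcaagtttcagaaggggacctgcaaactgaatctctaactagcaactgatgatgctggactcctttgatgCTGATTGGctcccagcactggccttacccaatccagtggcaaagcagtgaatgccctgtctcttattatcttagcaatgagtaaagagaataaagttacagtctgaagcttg
Irf1: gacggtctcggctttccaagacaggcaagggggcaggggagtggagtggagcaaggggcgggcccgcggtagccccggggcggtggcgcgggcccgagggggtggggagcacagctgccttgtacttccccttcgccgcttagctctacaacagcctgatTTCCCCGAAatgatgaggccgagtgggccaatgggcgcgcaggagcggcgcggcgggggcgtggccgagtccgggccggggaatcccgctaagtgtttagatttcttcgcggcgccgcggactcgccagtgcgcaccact
Psmb8: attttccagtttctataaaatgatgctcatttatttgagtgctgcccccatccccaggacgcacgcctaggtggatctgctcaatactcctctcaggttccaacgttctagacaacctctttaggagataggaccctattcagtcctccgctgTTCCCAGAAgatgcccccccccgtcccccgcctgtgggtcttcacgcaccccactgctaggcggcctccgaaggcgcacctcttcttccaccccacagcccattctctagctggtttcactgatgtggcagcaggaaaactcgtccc
The capitals begin 51 bases before the start of H2-Aa, 62 before H2-Eb1, 90 before Irf1 and 97 before Psmb8. Both motifs were searched on both strands, and their letters do not overlap in these runs. Of 32851 promoters of this length, 4.10% held CTGATTGG and 8.30% held TTCNNNGAA. Among class II genes with an entry, 4 of 16 held CTGATTGG (H2-Aa, H2-Eb1, H2-Eb2 and H2-Oa), and among MHC class I and immunoproteasome genes 8 of 22 did. TTCNNNGAA was in 2 of 16 (H2-DMb2 and Marchf1) and in 2 of 22 (H2-M3 and Psmb8), shares near that of all promoters. A match is a description of letters and not evidence of a bound site. Of 8 class II genes asked for, 5 had an entry: H2-Aa, H2-Eb1, H2-DMa, H2-DMb1 and H2-DMb2. The H2-DM genes held no CTGATTGG and are not printed. Irf1 and Psmb8 were not among the 8.

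Summed over the 4 genes, positive cells stood at 349, 796 and 634 CPM (counts per 1000000 UMIs, over all cells of a kind in a replicate) in replicates 1, 2 and 3, and below-5 cells at 7.90, 28.1 and 16.1 CPM. Control cells of the same libraries, without T cells or IFNγ, stood at 3.27, 8.97 and 6.47 CPM. Cells stimulated with the cytokines that met the same limit stood at 2020, 1818 and 2595 CPM. Positive co-culture cells thus lay far above control cells and below cytokine-stimulated cells in each replicate. The median positive cell carried 11, 30 and 21 UMIs of the 4 genes and the highest 146, 180 and 160, against medians of 86, 76 and 114 in cytokine-stimulated cells.

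Cd74 gave most of this signal, at 223, 518 and 438 CPM in positive cells, which was 64.0%, 65% and 69.1% of the 4-gene sum. H2-Ab1 stood at 44.4, 106 and 74.5 CPM, H2-Aa at 43.0, 82.6 and 56.2 CPM and H2-Eb1 at 38.5, 89.7 and 65.4 CPM. All 4 genes were seen together in 37.3%, 67.7% and 55.5% of positive cells, and Cd74, with or without the others, in 98.0%, 99.8% and 100.0%. A Cd74 UMI was also seen in 17.4%, 42.6% and 31.8% of below-5 cells and in 6.54%, 19.1% and 13.3% of control cells at similar depth, and so the presence of a single UMI does not separate the cells.

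The limit of 5 UMIs cut through a continuous distribution. Just below it, 96 cells had 3 and 108 had 4 UMIs, and just inside it 86 had 5 and 70 had 6. At the ends, 1581 cells had 0 and 391 had 50 or more.

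By condition, 6.67%, 56.3% and 20.5% of organoid cells with the Treg hashtag were positive in replicates 1, 2 and 3. With the IL-10 receptor blocked (Treg_aIL10R) the shares were 13.6%, 75.7% and 49.4%, higher than Treg in each replicate, although the replicates differed more than the conditions did. Background in the same libraries was low, with 1 of 596, 0 of 833 and 0 of 345 control cells positive, where 0 of 833 allows a share of up to 0.360% when 3 counts are taken as the limit, and of up to 0.442% by the exact binomial interval. With IFNγ blocked the shares were 0%, 0.10% and 0.26%, with both blocked 0%, 0% and 0.24%, and with the cytokines 98.8%, 96.8% and 99.7%. Exact binomial intervals (95%, counting error only) for Treg were 4.94% to 8.77%, 53.1% to 59.4% and 16.7% to 24.7%.

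**Figure D1:**
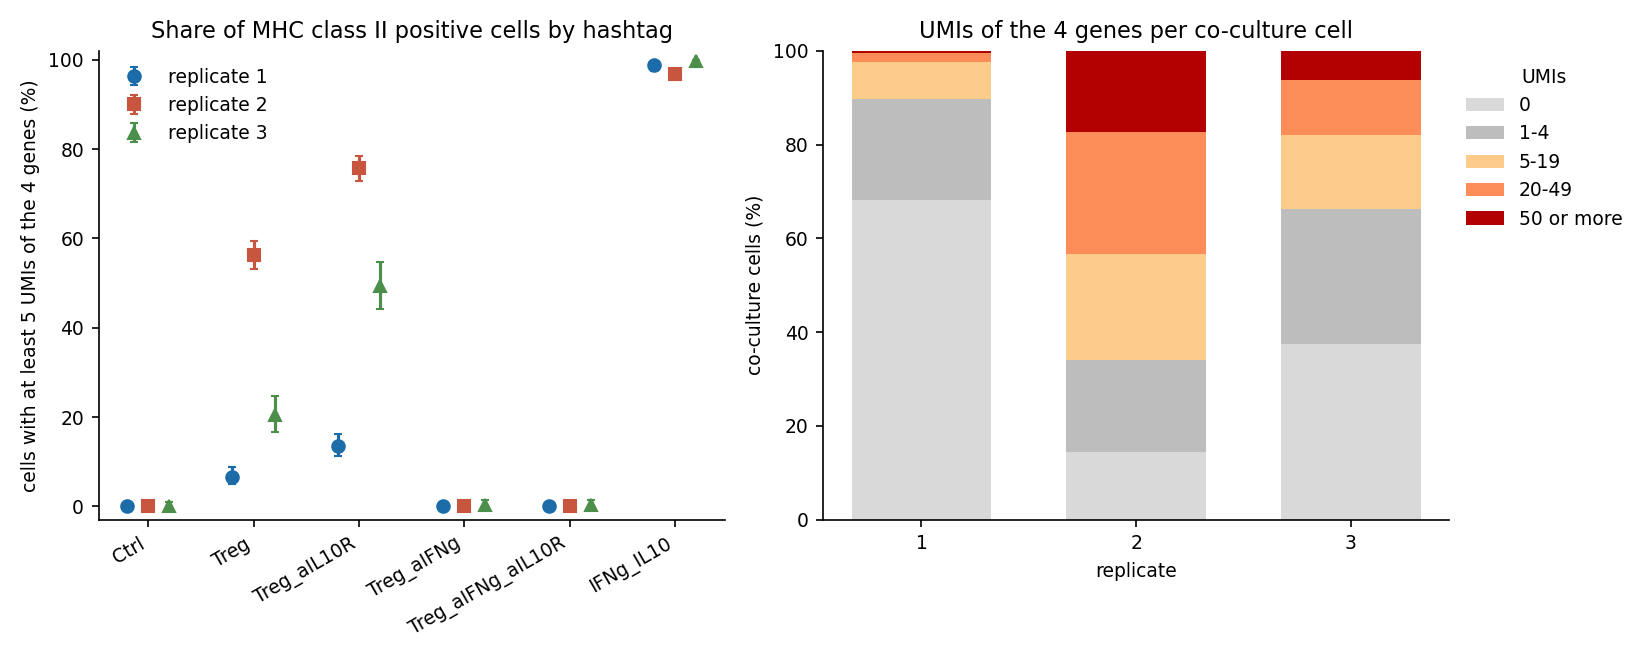
Left, share of cells with at least 5 UMIs of the 4 MHC class II genes (percent) by condition, with a point for each replicate and bars for the exact 95% binomial interval; right, co-culture cells of each replicate (percent, Treg and Treg_aIL10R together) by their UMIs of the 4 genes. Treg ranges from 6.67% to 56.3% and Treg_aIL10R from 13.6% to 75.7%, and replicate 2 holds most of the cells with 20 or more UMIs.

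The label of epithelial cells held for the positive cells. All 9 epithelial markers (Epcam, keratins and claudins among them) were detected, at a summed 5803, 6490 and 6396 CPM in positive and 6276, 6553 and 6434 CPM in below-5 cells, with Epcam the most abundant in positive cells. The 18 T cell markers summed to 2.64, 4.88 and 4.64 CPM in positive cells, 4.29, 15 and 19.1 CPM in below-5 cells and 4.15, 5.19 and 5.00 CPM in control cells. In positive cells 15, 10 and 11 of them had no UMI, among these Ptprc and Cd3e in each replicate, and the most abundant were Lck, Ctla4 and Tnfrsf18. The 20 markers of myeloid cells and B cells summed to 3.96, 6.06 and 5.36 CPM in positive cells, 5.09, 8.06 and 8.76 CPM in below-5 cells and 4.76, 5.22 and 4.55 CPM in control cells, and Itgax and Tyrobp had no UMI in positive cells of any replicate. Both sums were therefore lower in positive than in below-5 cells of the same replicate. Of the 3 genes tested on either list none was called between them, and of the epithelial markers Krt19 alone was (-0.27 ± 0.07, 1 of 9), which was lost without replicate 3.

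Which other genes differed between positive and below-5 cells of the same wells was tested next, with UMIs summed per replicate and the replicate as a block (edgeR quasi-likelihood test, Benjamini-Hochberg adjusted p under 0.05). The 2 hashtags were not balanced in this test, which has no term for them. Treg_aIL10R gave 106 of 153, 722 of 1269 and 177 of 263 positive cells. It gave 673 of 1331, 232 of 657 and 181 of 515 below-5 cells. Counts for each hashtag alone and for sums per replicate and hashtag are given at the end. Genes of antigen presentation, the immunoproteasome and IFNγ-induced GTPases rose, together with markers of crypt base stem cells, while enterocyte and enteroendocrine genes fell. Of 10 tested Paneth cell genes 6 fell, and 2 of 9 with below-5 cells drawn to the depth of the positive cells. Of 13486 genes tested, 425 rose (3.15%) and 885 fell (6.56%), with the 4 genes of the rule left out of these counts. At an unadjusted p under 0.05, 1415 were higher and 1774 lower. Without replicate 2, 295 rose and 558 fell, and in a fit without the block 0 genes rose or fell by edgeR, with 585 at an unadjusted p under 0.05. Changes are log2 ± SE, positive against below-5 cells, and the median over all genes was 0.0012. A gene can enter this test only through the cells where it is high, so counts of risen list members leave out genes that did not pass the filter on low counts between below-5 and control cells, a choice made after seeing the data. Over the genes that did, 413 of 13374 rose (3.09%).

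Of 19 other MHC class II genes 11 were tested, H2-DMb1 and H2-DMb2 only through the positive cells. Of the other 9, 3 rose and 1 fell (median 0.23). Ciita, the co-activator of class II transcription, was at 10.8, 11.7 and 6.80 CPM in positive cells of replicates 1, 2 and 3 and at 1.57, 3.51 and 1.70 CPM in below-5 cells. The groups did not overlap, and Ciita rose by 2.13 ± 0.18 (adjusted p = 1.8e-05). H2-DMa, a chain of the peptide exchanger H2-DM, was at 44.6, 64.0 and 59.8 CPM against 12.8, 22.5 and 17.9 CPM and rose by 1.67 ± 0.07 (adjusted p = 8.7e-08). H2-DMb1, its beta chain, was at 3.43, 14.1 and 6.64 CPM against 0.128, 0.739 and 0.249 CPM (4.45 ± 0.19). For H2-DMb2 the positive cells held 1.19, 4.06 and 1.92 CPM, while below-5 cells held 1, 2 and 2 UMIs in all, so that no fold is given. Each of these genes was higher in positive cells of all 3 replicates, which for H2-DMb1 and H2-DMb2 follows in part from the way they entered the test.

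Of the proteases of the class II pathway, Ctss (cathepsin S, which trims the invariant chain) was at 28.9, 27.4 and 27.0 CPM against 21.2, 22.7 and 22.2 CPM and rose by 0.33 ± 0.07 (adjusted p = 0.016), which was lost without replicate 1. Ctsl (cathepsin L) was at 5.14, 9.11 and 8.08 CPM against 6.03, 15.2 and 11.3 CPM and fell by 0.57 on the log2 scale (adjusted p = 0.0058), which was lost without replicate 2 and when below-5 cells were drawn to the clusters or to the depth of the positive cells. The DNA-binding partners of CIITA had no call: Rfx5 differed by 0.23 ± 0.15, Rfxap by 0.00 ± 0.06 and Rfxank by 0.07 ± 0.12. Lgmn (0.29 ± 0.09, adjusted p = 0.068) and Ifi30 (-0.14 ± 0.05), which act in the same endosomes, did not pass either.

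MHC class I presentation rose as a group, with 15 of 18 tested genes up and none down (median 0.46). B2m, the light chain of class I, was at 360, 354 and 370 CPM against 273, 279 and 284 CPM, without overlap, and rose by 0.37 ± 0.05 (adjusted p = 0.00036). The heavy chains H2-K1 and H2-D1 rose by 0.38 ± 0.05 and 0.35 ± 0.05, and the nonclassical H2-T23 by 0.58 ± 0.08. Tap1, a subunit of the transporter that carries peptides into the endoplasmic reticulum, was at 12.5, 22.3 and 19.2 CPM against 5.95, 10.3 and 8.76 CPM and rose by 1.11 ± 0.08. Tap2 rose by 0.68 ± 0.10, the loading factors Tapbp and Tapbpl by 0.46 ± 0.08 and 0.67 ± 0.09, and Nlrc5, the co-activator of class I genes, by 1.00 ± 0.20. The general chaperones Calr (-0.04 ± 0.05) and Pdia3 (0.06 ± 0.05) of the same list did not pass.

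Of the immunoproteasome and its activator, 5 of 6 tested genes rose (median 0.57). Psmb8, a catalytic subunit that replaces its constitutive counterpart under IFNγ, was at 105, 176 and 202 CPM in positive cells against 40.2, 57.9 and 75 CPM in below-5 cells and rose by 1.47 ± 0.06 (adjusted p = 4.4e-08). Psmb9 was at 99.7, 173 and 165 CPM against 52.2, 78.7 and 81.5 CPM and rose by 1.03 ± 0.06. Psmb10 rose by 0.56 ± 0.05, and Psme1 and Psme2, which form the PA28 activator, by 0.59 ± 0.05 and 0.44 ± 0.05. The assembly factor Pomp did not pass (0.10 ± 0.05, adjusted p = 0.27). For Psmb8 and Psmb9 the lowest positive replicate lay above the highest below-5 replicate.

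IFNγ-induced GTPases attack vacuoles of intracellular pathogens. Of the 17 on the list 7 were tested, Gbp6 and Tgtp2 only through the positive cells, and the other 5 rose (Gbp7, Igtp, Irgm1, Irgm2 and Iigp1). Igtp was at 8.17, 19.5 and 13.0 CPM against 1.95, 5.58 and 2.70 CPM and rose by 2.00 ± 0.12 (adjusted p = 9.2e-07). Iigp1 was at 4.22, 9.65 and 2.16 CPM against 0.336, 1.29 and 0.539 CPM and rose by 2.93 ± 0.24, and Irgm1 rose by 0.99 ± 0.08. The annotated spans of Igtp and Irgm2 overlap, so that reads between them are uncertain.

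Among STAT and IRF genes 3 of 15 rose, Irf1 and Irf8 among them. Irf1, a transcription factor that acts on Ciita, was at 61.4, 76.9 and 70.7 CPM against 41.8, 51.8 and 41.6 CPM and rose by 0.63 ± 0.06 (adjusted p = 6.0e-05). Irf8 rose by 0.51 ± 0.06. The list's median was 0.01. Irf1 did not pass when only cells with the Treg hashtag were compared.

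Receptors, inhibitors, checkpoint genes and chemokines had no call by edgeR in the main fit. None of 11 tested receptor genes for interferons and IL-10 passed by edgeR, with 1 higher and 1 lower at an unadjusted p under 0.05. With below-5 cells drawn to the depth of the positive cells 1 of 11 rose (2.2% of all genes did). Ifngr1, the ligand-binding chain for IFNγ, was at 107, 89.1 and 94.6 CPM in positive and 107, 97.0 and 108 CPM in below-5 cells, a difference of -0.11 ± 0.05, and Ifngr2 differed by -0.10 ± 0.05. None of 8 inhibitors of the pathway passed (1 higher at an unadjusted p under 0.05), with Socs1 at 0.45 ± 0.31 and Ptpn2 at 0.01 ± 0.05. None of 5 tested checkpoint and chemokine genes passed (1 lower at an unadjusted p under 0.05), Cd274 (PD-L1) being at 0.659, 1.28 and 0.400 CPM against 0.576, 1.37 and 0.498 CPM. Of 12 tested type I interferon-stimulated genes 4 entered only through the positive cells, among them Oasl2 (1.69 ± 0.42), and of the other 8 only Bst2 rose (0.45 ± 0.07). DESeq2 was run on the same sums, and it called 236 genes up and 451 down in all.

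Ifitm3, a membrane protein that restricts virus entry, was at 914, 629 and 666 CPM in positive cells and 347, 237 and 349 CPM in below-5 cells. It rose by 1.24 ± 0.08 (adjusted p = 1.8e-06) with no overlap. Tnfsf10 (TRAIL), a death receptor ligand, was at 40.2, 24.8 and 23 CPM against 20, 9.94 and 16.6 CPM and rose by 0.95 ± 0.12. Of 17 tested cell death genes, Casp12 (1.88 ± 0.33) and Zbp1 entered only through the positive cells. Of the other 15, 2 rose, Casp1 (0.22 ± 0.06, lost without replicate 2 or 3) beside Tnfsf10, and none fell. With below-5 cells drawn to the clusters of the positive cells (described below) 4 of 15 rose, where 1.35% of all genes counted this way did. The initiator caspase Casp8 (0.02 ± 0.06) did not pass.

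**Figure D2:**
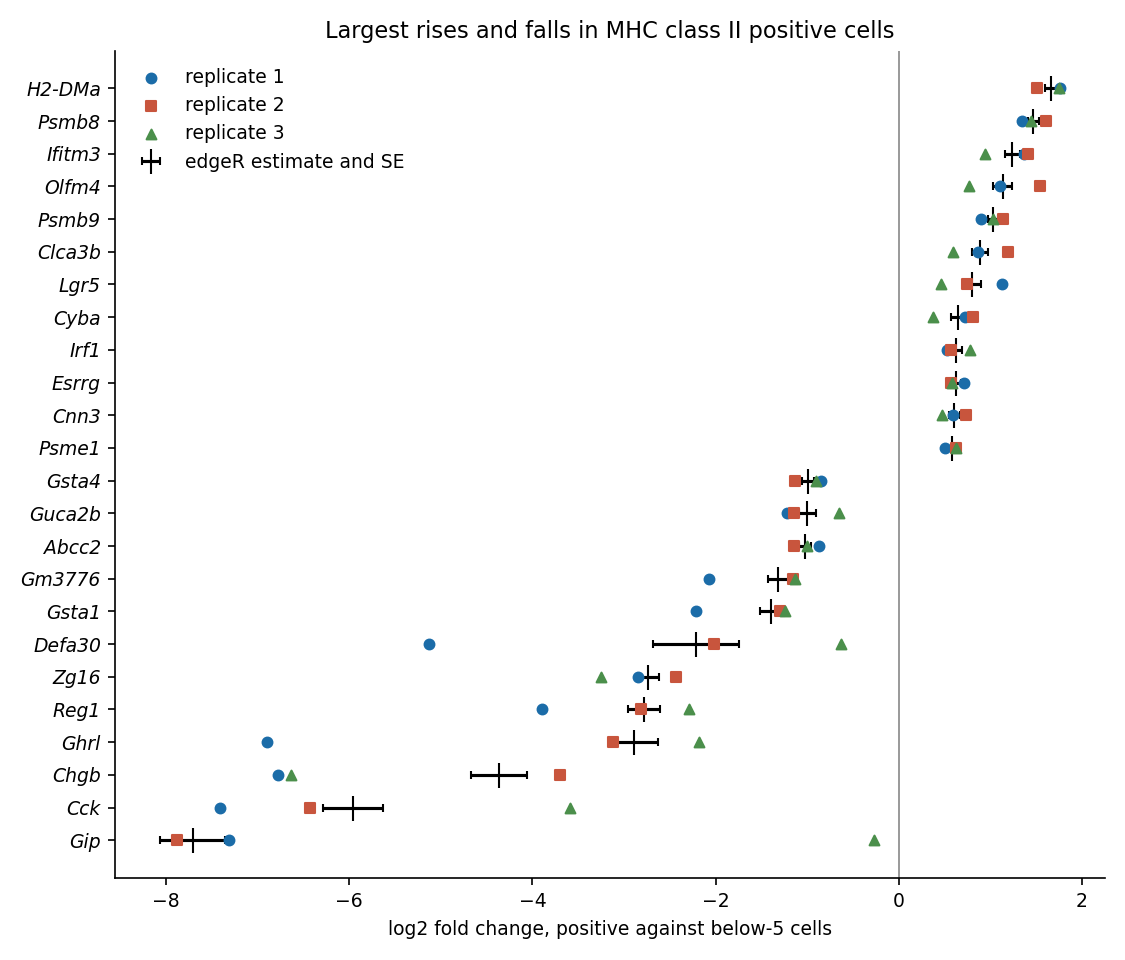
The 12 largest rises and 12 largest falls in positive against below-5 cells by the naming rule (x axis, log2 fold change), with a point for each replicate and the edgeR estimate ± SE as a cross. H2-DMa leads the rises at 1.67 and Gip the falls at -7.71, where replicate 3 lies near 0.

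Some of the genes that rose lie near the class II genes themselves. In a window of 500000 bases on either side of H2-Ab1 (chr17:33757689-34769419, GRCm38, chosen after the values were seen), 48 genes were tested beside those of the rule, and 11 of the 425 risen genes lay among them, with none that fell. Of the 45 that did not enter only through the positive cells 8 rose, against 3.09% of all such genes. The 11 were Kifc1, Tapbp, H2-K1, H2-DMa, H2-DMb2, H2-DMb1, Psmb9, Tap1, Psmb8, Tap2 and Gm20513. All but Kifc1 and Gm20513 belong to the class I, class II and immunoproteasome lists above, so the window mostly counts those rises again. By the GENCODE annotation Psmb8 lies at chr17:34197721-34201454 and H2-DMa at chr17:34119541-34139101, between H2-K1 and H2-Ab1. Gm20513 is an antisense transcript overlapping H2-Eb1 and its UMIs may belong to that gene. Kifc1, a kinesin of the mitotic spindle, rose by 0.33 ± 0.08 and did not pass without replicate 2 or 3.

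Crypt base genes rose too, 13 of 19 tested stem cell genes with none down (median 0.43). Below-5 cells were themselves lower than control cells in this list (median -0.30, 19 of 19 below 0). None of the 19 was called there, with 9 lower at an unadjusted p under 0.05, where 663 of 13687 genes were. The rise is thus one over below-5 cells, and positive cells were not tested against control cells. Olfm4, a secreted marker of crypt base cells, was at 2064, 822 and 1141 CPM in positive cells and 938, 284 and 676 CPM in below-5 cells and rose by 1.14 ± 0.10 (adjusted p = 3.9e-05). Lgr5, the R-spondin receptor that marks intestinal stem cells, was at 136, 56.0 and 46.0 CPM against 60.8, 33.5 and 33.7 CPM and rose by 0.80 ± 0.10. In both genes positive cells were higher in each replicate, although the ranges over replicates overlapped. Smoc2 (0.51 ± 0.07), the Wnt target Axin2 (0.51 ± 0.07), Cd44 (0.49 ± 0.05), Ascl2 (0.44 ± 0.08), Sox9 (0.43 ± 0.05) and Slc12a2 (0.40 ± 0.06) also rose, whereas Ephb2 (-0.01 ± 0.06) and the reserve stem cell marker Hopx (-0.03 ± 0.05) were not called. Among the largest rises by the naming rule were also Clca3b (0.89 ± 0.09), Cyba (0.64 ± 0.07), a subunit of NADPH oxidase, Esrrg (0.63 ± 0.05), an orphan nuclear receptor, and Cnn3 (0.61 ± 0.06), an actin-binding calponin.

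Cell cycle genes were higher by small amounts. Of 25 S phase genes 7 rose and none fell (median 0.22), and of 25 G2 and M phase genes 7 rose and none fell (median 0.16), against 3.15% of all genes rising. All 25 of each list had a change above 0, with 21 and 16 at an unadjusted p under 0.05, where 1415 of 13486 genes were higher. Below-5 cells stood lower than control cells in both lists (medians -0.13 and -0.13, none called). With below-5 cells drawn to the clusters of the positive cells (described below), 1 and 0 of them rose. Drawn to the depth of the positive cells 5 and 0 rose (medians 0.19 and 0.042, with 2.2% of all genes rising). Another fit chose cells after thinning to 10000 UMIs, as at least 2 UMIs of the 4 genes against 0. Its sums used full counts, and 3 and 0 rose (medians 0.26 and 0.039, with 1.36% rising). Mcm6 rose by 0.30 ± 0.07 and Top2a by 0.24 ± 0.06, while Mki67 (0.09 ± 0.05) and Pcna (0.08 ± 0.05) did not pass. Mcm6 lost its call without replicate 2 and Top2a without replicate 2 or 3.

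Enterocyte genes fell, 14 of 17 tested with none up (median -0.62), and 14 of the 16 with at least 10 UMIs in control cells of each replicate. Below-5 cells were themselves higher than control cells in this list (median 0.45, none of 18 called). There 13 were higher and 1 lower at an unadjusted p under 0.05, where 1051 of 13687 genes were higher and 663 lower. Fabp1, a fatty acid carrier, was at 930, 1820 and 2134 CPM in positive cells and 1925, 2933 and 4406 CPM in below-5 cells and fell by 0.93 on the log2 scale (SE 0.07, adjusted p = 5.5e-06). Sis, the brush border sucrase-isomaltase, was at 291, 312 and 265 CPM against 472, 477 and 387 CPM and changed by -0.62 ± 0.05, without overlap. The retinol carrier Rbp2 (-0.73 ± 0.10), the apolipoprotein Apoa4 (-1.03 ± 0.14), Krt20 (-0.96 ± 0.13) and Alpi (-0.86 ± 0.09), which mark mature cells, were lower too. Reg1, a secreted regenerating protein, was at 3.69, 3.53 and 16.8 CPM against 54.8, 25.2 and 83.4 CPM and changed by -2.78 ± 0.17. Other large falls by the naming rule were Gsta1 (-1.40 ± 0.11), Gm3776 (-1.31 ± 0.12) and Gsta4 (-0.99 ± 0.06), which belong to a family of glutathione transferases with near-identical copies, the transporter Abcc2 (-1.02 ± 0.06) and the peptide Guca2b (-1.0 ± 0.09).

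All 12 enteroendocrine genes tested fell, and so did the 9 of them with at least 10 UMIs in control cells of each replicate, which do not depend on below-5 cells to enter the test (median -3.28). Cck, the hormone cholecystokinin, was at 0.527, 2.00 and 3.60 CPM in positive cells and 99.4, 178 and 44.4 CPM in below-5 cells and changed by -5.96 ± 0.33 (adjusted p = 5.3e-07). Gip was at 0.659, 1.13 and 0.640 CPM against 113, 282 and 0.788 CPM, so its change of -7.71 ± 0.36 came from replicates 1 and 2. Chgb (-4.36 ± 0.31) and Ghrl (-2.89 ± 0.26), products of the secretory granule and of ghrelin cells, were lower in each replicate. Few cells carried these values: 0, 2 and 1 positive cells gave at least 1% of their UMIs to the list, against 15, 22 and 10 below-5 cells.

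Of 10 Paneth cell genes 6 fell (median -1.41) and of 10 goblet cell genes 2 fell (median -0.91), with none up, counted over genes with at least 10 UMIs in control cells of each replicate. With below-5 cells drawn to depth 2 of 9 tested Paneth and 3 of 11 goblet cell genes fell (4.4% of all genes did). In the fit on cells chosen after thinning, with full counts summed, 1 of 10 and 1 of 11 fell (2.6%). That fit also changed the limit, to at least 2 UMIs of the 4 genes against 0. Cells giving at least 1% of their UMIs to the Paneth list were 0.654%, 1.81% and 3.42% of positive and 2.33%, 5.94% and 1.17% of below-5 cells, and for the goblet list 1.96%, 3.78% and 6.08% against 3.16%, 11.4% and 3.88%. Replicate 3 thus went against the other replicates in both. In control cells below the same limit the shares were 1.34%, 1.92% and 2.61% for the Paneth list and 3.19%, 2.64% and 4.64% for the goblet list. Positive cells lay below control cells in replicates 1 and 2 for Paneth and in replicate 1 for goblet, and above them in the others. Defa30, a cryptdin, was at 8.83, 148 and 39.9 CPM against 305, 604 and 62.4 CPM and changed by -2.21 ± 0.47 (adjusted p = 0.012). Lyz1, the Paneth cell lysozyme, was at 43.6, 140 and 119 CPM against 103, 476 and 105 CPM, so that replicate 3 went the other way, and its call (-0.96 ± 0.27, adjusted p = 0.042) was lost without replicate 1 or 2. Zg16, a goblet cell lectin, was at 3.30, 30.1 and 13.0 CPM against 23.6, 164 and 125 CPM and changed by -2.74 ± 0.12. Muc2, the main mucin, did not pass (-1.23 ± 0.38, adjusted p = 0.069). Defensin genes have near-identical copies between which reads may be split.

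How far these changes followed the kind of cell was measured by drawing below-5 cells to the same make-up of clusters as the positive cells (727, 320 and 288 of the 1331, 657 and 515 cells). The match is imperfect, since the same assignment returned 78.4% of control cells to their own cluster, and 87.8% of cells kept their cluster when thinned. Then 173 of 12329 genes rose (1.4%) and 133 fell (1.08%), in a fit with fewer below-5 cells. The clusters were built from genes such as Fabp1, Reg1, Olfm4 and Lgr5 and without interferon and antigen presentation genes, so a shrinking of enterocyte and stem cell changes, and not of the others, is largely set by the matching. Counted over members that did not enter only through the positive cells, 3 of 9 other class II genes, 13 of 18 class I genes, 5 of 6 immunoproteasome genes and 5 of 5 GTPases rose, where 1.35% of all such genes did. Ciita went from 2.13 to 2.20, Psmb8 from 1.47 to 1.58, Igtp from 2.00 to 2.36 and Irf1 from 0.63 to 0.67. The enterocyte list went from 14 falls to 1 fall and 3 rises of 16 tested (median 0.07), with Fabp1 at 0.081 and Sis at 0.19 (adjusted p = 0.013), the reverse of the direction above. Of 19 stem cell genes 5 still rose (median 0.07), namely Olfm4 at 0.59, Lgr5 at 0.36, Smoc2 at 0.27, Sox9 at 0.23 and Rgmb at 0.23, while Axin2 (0.07) and Ascl2 (-0.046) did not. Ifitm3 went from 1.24 to 0.85, Tnfsf10 from 0.95 to 0.68 and Reg1 from -2.78 to -1.91. Endocrine falls went to 3 of 9 and Paneth falls to 4 of 9.

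Clusters were built from the 1774 control cells without interferon and antigen presentation genes, and co-culture cells were assigned to them. Of 10 clusters 2 could be named from markers (enterocyte-like and secretory), and the others are called by leading genes. The cluster Olfm4/Dtl was led by the stem cell genes Olfm4 and Lgr5 together with S phase genes such as Mcm6 and Cdt1, and it stays unnamed. Positive cells were found in every cluster, and the shares positive in Olfm4/Dtl cells were 15.3%, 76.6% and 39.4% in replicates 1, 2 and 3. In enterocyte-like cells they were 4.09%, 54.9% and 23.4%, and in secretory cells 5.17%, 26.8% and 33.3%. Olfm4/Dtl cells were more often positive than enterocyte-like cells in each replicate.

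As a share of cells, the Olfm4/Dtl cluster was 21.6%, 13.2% and 15.6% of positive and 13.7%, 7.76% and 12.2% of below-5 cells. In control cells it was 13.6%, 15.1% and 17.7%, so that positive cells lay above control cells in replicate 1 only. The mean difference between positive and below-5 cells was 5.52 percentage points (SD 2.23, n = 3, exact two-sided sign-flip permutation test p = 0.25, the smallest that 3 replicates allow). A cycling cluster led by Cenpf and Axin2 was 6.50 points (SD 3.37) more frequent in positive cells. The clusters Olfm4/histone (5.39 points, SD 4.91) and Ube2c/Cdc20 (3.72, SD 2.67) were also more frequent in each replicate, and Dmbt1/histone (-4.41, SD 3.31) and Areg/S100a6 (-2.60, SD 0.54) less frequent. Clusters were also assigned with cells thinned to 10000 UMIs, the positive cells still being those chosen at full depth. Replicate 3 then turned to 0.71 points for Dmbt1/histone and to 1.03 points for the secretory cluster. The signs of Olfm4/Dtl, Cenpf/Axin2, Olfm4/histone, Ube2c/Cdc20, Areg/S100a6 and enterocyte-like held in each replicate. The enterocyte-like cluster was 5.88%, 12.4% and 11% of positive and 15.9%, 19.6% and 18.4% of below-5 cells, a difference of -8.22 points (SD 1.52), again in the same direction in each replicate. In control cells it was 14.1%, 9.84% and 15.7%. Positive cells thus lay below control cells in replicates 1 and 3 and above them in replicate 2, and below-5 cells lay above them in each replicate. The secretory cluster differed by -4.46 points (SD 5.84), most of it from replicate 2. Depth varied with the cluster too, with median UMIs of positive Olfm4/Dtl cells at 36593, 35926 and 33617 and of the Cenpf/Axin2 cells at 57707, 55918 and 55962. Whether deeper clusters reached the limit of 5 UMIs more easily was not tested.

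**Figure D3:**
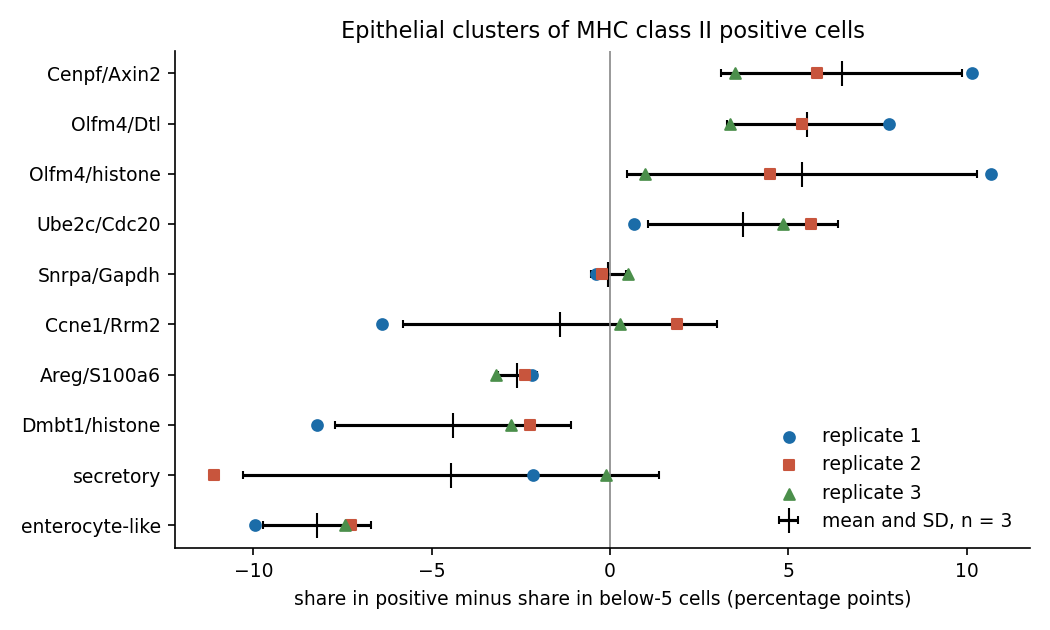
Share of each cluster in positive cells minus its share in below-5 cells (x axis, percentage points), with a point for each replicate and the mean ± SD (n = 3) as a cross. In all 3 replicates Cenpf/Axin2, Olfm4/Dtl, Olfm4/histone and Ube2c/Cdc20 lie above 0 and enterocyte-like, Dmbt1/histone, Areg/S100a6 and secretory below 0, the secretory cluster from -11.1 to -0.11. With cells thinned to 10000 UMIs for the cluster assignment only, replicate 3 lies above 0 for Dmbt1/histone (0.71) and secretory (1.03).

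Within the co-culture, levels were graded with the UMIs of the 4 genes. Ciita in replicate 2 was at 0.19 CPM in control cells and at 2.39, 4.27, 7.08, 11.7 and 16.9 CPM in co-culture cells with 0, 1 to 4, 5 to 19, 20 to 49 and 50 or more UMIs. In replicate 1 the same order ran from 0.20 CPM in control cells over 1.25, 2.54, 9.04 and 14.4 to 20.7 CPM, and in replicate 3 from 0.26 over 0.91, 2.67, 3.28 and 8.09 to 12.1 CPM. Ciita therefore rose at each step in all 3 replicates, and stood higher again in cytokine-stimulated cells, at 36.2, 22.6 and 26.4 CPM. Only 8 cells of replicate 1 had 50 or more UMIs.

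The highest bin resembled cytokine-stimulated cells in some genes and not in others. H2-DMa in cells with 50 or more UMIs was at 110, 95.3 and 97.8 CPM, against 122, 100 and 145 CPM in cytokine-stimulated cells. Igtp, in contrast, was at 20.7, 30.3 and 32.7 CPM in that bin and at 320, 67.7 and 143 CPM in cytokine-stimulated cells. Ifitm3 was at 1621, 987 and 885 CPM in that bin against 449, 603 and 721 CPM, and Olfm4 at 3228, 1321 and 1603 CPM against 249, 478 and 412 CPM. The GTPase was thus lower and the Ifitm3 and Olfm4 levels higher in the most class II-rich co-culture cells than in cytokine-stimulated cells, in each replicate. Fabp1 ran the other way within the co-culture, from 2067, 3141 and 4627 CPM in cells with 0 UMIs to 55.8, 818 and 1487 CPM in cells with 50 or more.

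Irf1, like Ciita, stood above control cells in co-culture cells with 0 UMIs of the 4 genes. There it was at 40.7, 47.4 and 42.0 CPM, against 9.70, 6.69 and 7.49 CPM in control cells. In cells with 50 or more UMIs it was at 86.8, 85.1 and 101 CPM.

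**Figure D4:**
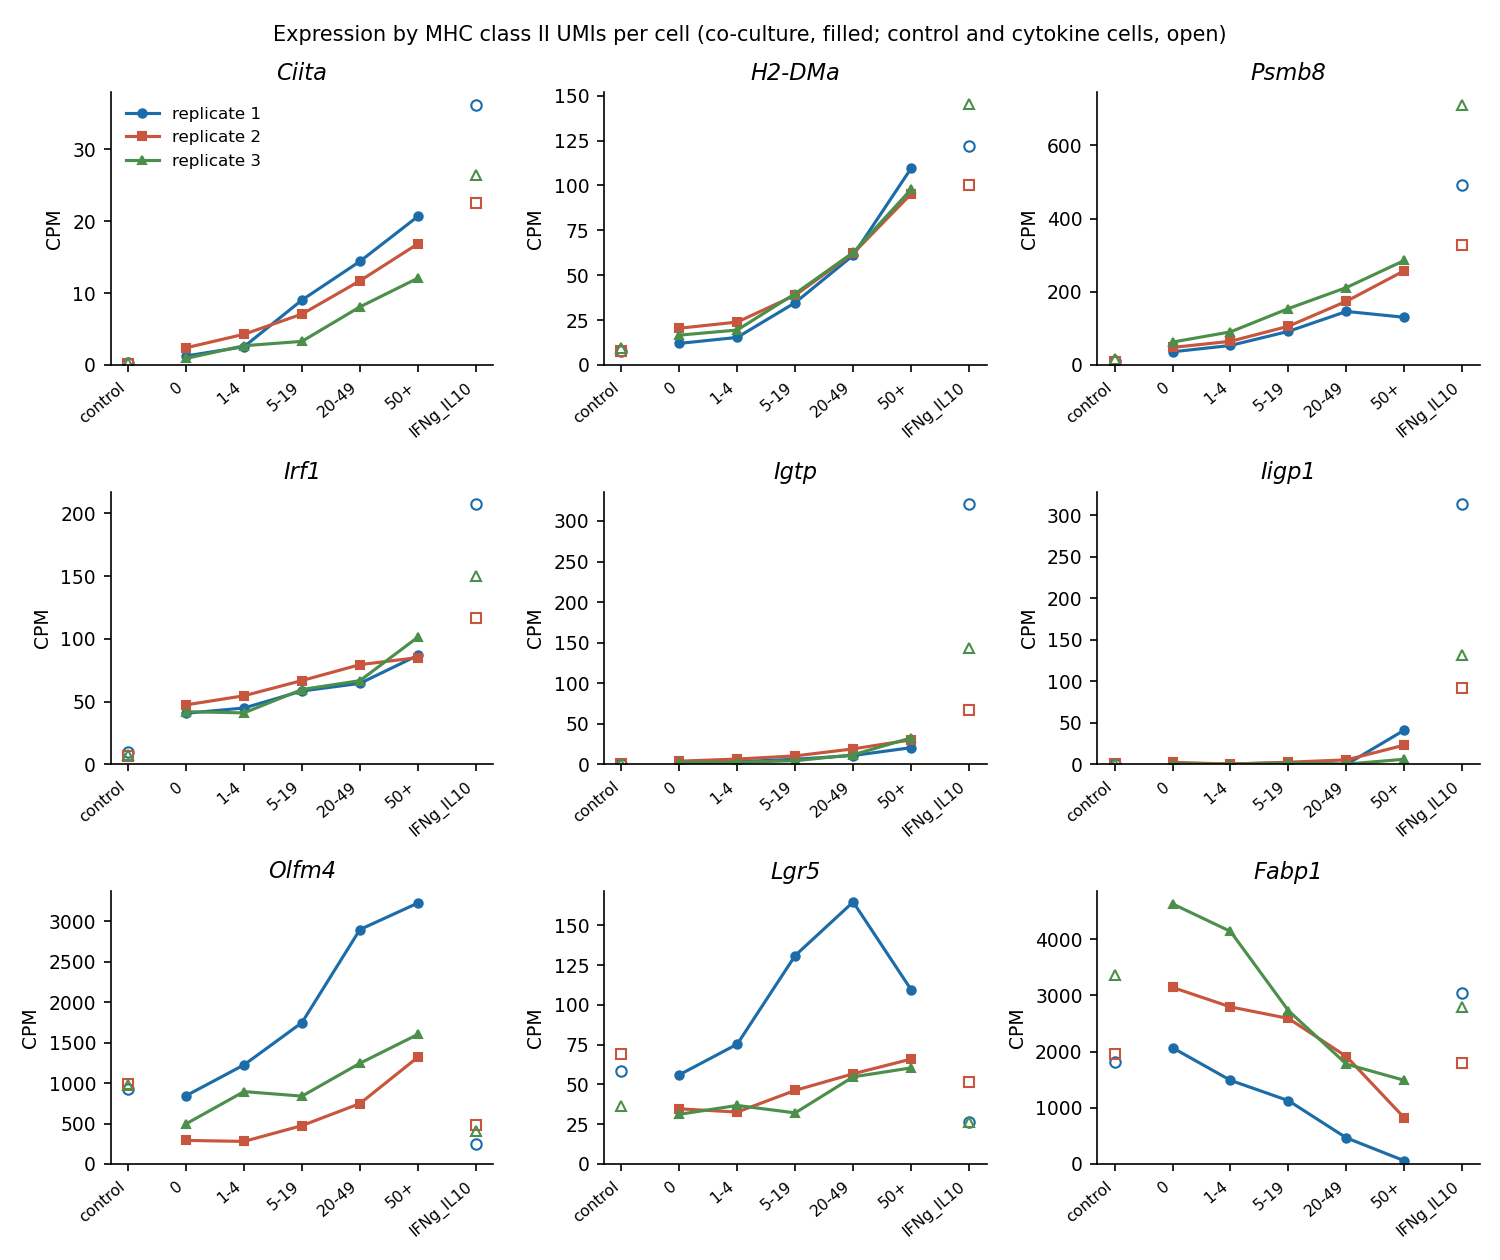
Levels of 9 genes (CPM, linear axes from 0) in co-culture cells binned by their UMIs of the 4 class II genes (filled points joined by a line for each replicate) and in control and cytokine-stimulated cells (open points). Ciita rises at each step, Igtp in the highest bin stays below cytokine-stimulated cells, and Olfm4 lies above them, with 8 cells in that bin of replicate 1.

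Positive cells also carried more hashtag antibody. As background, hashtag antibodies of this kind bind CD45 and MHC class I on the cell surface. The median count of a cell's own hashtag was 291, 360 and 350 in positive and 151, 161 and 208 in below-5 cells, a ratio of 1.94 (geometric mean over 1.93, 2.24 and 1.68; exact two-sided sign-flip permutation p = 0.25, the smallest possible with n = 3). Within Treg it was 396, 465 and 339 against 218, 187 and 219.5, and within Treg_aIL10R 257.5, 297.5 and 356 against 106, 127 and 180. The hashtag of another condition, that of the cytokine wells, was level, at 15, 16 and 168 against 16, 14 and 167. The median total of mRNA UMIs was 47717, 44684 and 46650 in positive and 45986, 38782 and 45450 in below-5 cells.

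Hashtag counts also decided which cells entered. The margin of the own hashtag over the next was 2.59, 2.33 and 2.68 (difference of normalized log values) in positive and 1.79, 1.5 and 2.05 in below-5 cells. Whether some below-5 cells belonged to other wells was not tested. The cytokine hashtag was second highest in 17.6%, 10.5% and 26.6% of positive and 17.0%, 11.1% and 29.1% of below-5 cells, and without those cells 348 genes rose and 747 fell. With below-5 cells drawn to the depth of the positive cells, 266 rose and 533 fell.

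**Figure D5:**
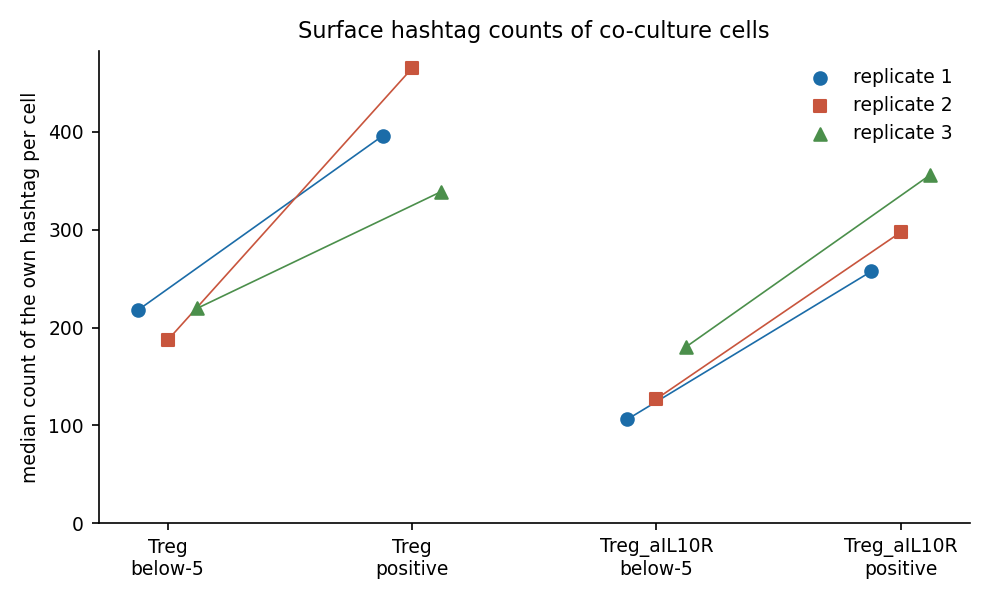
Median count of the cell's own hashtag (y axis, hashtag UMIs per cell) in below-5 and positive cells of Treg and Treg_aIL10R, with a line joining the cells of a replicate. Positive cells are higher in all 6 pairs, for example 465 against 187 for Treg in replicate 2.

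Whether below-5 cells were like untreated epithelium was asked by comparing them with control cells below the same limit. They were not: of 13687 genes tested, 11 rose (0.0804%) and none fell (0.0%) by edgeR, where 1051 were higher and 663 lower at an unadjusted p under 0.05 and DESeq2 called 100 up and 10 down. These counts leave out Cd74, which both groups hold below the limit. Irf1 was at 41.8, 51.8 and 41.6 CPM in below-5 and 9.64, 6.69 and 7.49 CPM in control cells, a rise of 2.51 ± 0.15 (adjusted p = 0.0087). Psmb8 was at 40.2, 57.9 and 75 CPM against 10.3, 6.83 and 17.5 CPM, a rise of 2.38 ± 0.20 (adjusted p = 0.022). In both genes, the groups were far apart in each replicate.

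Ciita was at 1.57, 3.51 and 1.70 CPM in below-5 and 0.204, 0.190 and 0.256 CPM in control cells, which held 6, 7 and 4 UMIs of it. It is among the 11 genes but entered the test only through below-5 cells, where it is high. Of 6 immunoproteasome genes 5 rose, with Psmb9 at 1.32, Psmb10 at 0.89, Psme1 at 0.77 and Psme2 at 0.68 beside Psmb8, and Lgals9 (galectin 9) rose by 0.36 ± 0.04. Of the 18 class I genes 0 passed by edgeR and 13 were higher at an unadjusted p under 0.05, B2m among them at 0.34 ± 0.04 (adjusted p = 0.090). The summed T cell markers given above were also higher in below-5 than in control cells in replicates 2 and 3, and their part in these results was not tested. Without replicate 3 no gene passed by edgeR (678 were higher and 303 lower at an unadjusted p under 0.05), without replicate 1 259 rose and 41 fell, and without replicate 2 43 rose and 6 fell.

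Positive co-culture cells were next set against cytokine-stimulated cells that met the same limit. Of 13019 genes 0 were higher (0.0%) and 1 was lower (0.00768%) by edgeR, while 803 were higher and 1183 lower at an unadjusted p under 0.05 and DESeq2 called 98 and 332. The gene was Ido1, the tryptophan-degrading enzyme, named after its values were seen, with 2, 0 and 0 UMIs in positive cells and 85.1, 2.12 and 11.7 CPM in cytokine-stimulated cells, through which alone it entered the test. Igtp was at 8.17, 19.5 and 13.0 CPM against 322, 68.7 and 143 CPM (-3.39 ± 0.68, adjusted p = 0.30). Irf1 was at 61.4, 76.9 and 70.7 CPM against 208, 118 and 151 CPM (-1.17 ± 0.24, adjusted p = 0.30). Both genes, as well as B2m and Psmb8, were lower in positive co-culture cells of each replicate without passing the test.

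Olfm4 went the other way, at 2064, 822 and 1141 CPM in positive co-culture cells and 250, 485 and 413 CPM in cytokine-stimulated cells (1.72 ± 0.43, adjusted p = 0.31). The sizes differed between replicates, and the count of calls depended on them: 90 genes were higher and 313 lower without replicate 1, and 103 and 303 without replicate 2. The cytokine wells had no T cells and held IL-10 at 10 ng/ml, whereas 1005 of the positive cells came from wells with the IL-10 receptor blocked. The presence of T cells, the dose of IFNγ and IL-10 signaling therefore cannot be told apart in this comparison.

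Lastly, positive cells of Treg_aIL10R were compared with positive cells of Treg, to see whether they differed with the IL-10 receptor blocked. Of 11252 genes 14 rose (0.124%) and 2 fell (0.0178%), mostly Paneth and goblet cell genes, with 6 of 8 and 3 of 10 tested. The 4 genes of the rule are left out of these counts, and of them Cd74 was called, at 267, 554 and 510 CPM in Treg_aIL10R and 124, 469 and 278 CPM in Treg (0.68 ± 0.11), which is a description since the cells were selected on it. Lyz1 was at 53.9, 181 and 141 CPM in Treg_aIL10R and 20.3, 84.7 and 69.6 CPM in Treg and rose by 1.10 ± 0.07 (adjusted p = 1.3e-05). Defa17 was at 23.4, 73.6 and 76.1 CPM against 5.61, 22.8 and 3.84 CPM and rose by 2.18 ± 0.26, and Mmp7, which activates cryptdins, rose by 1.77. In both Lyz1 and Defa17, Treg_aIL10R was higher in each replicate, and without replicate 1 Lyz1 kept its call while Defa17 and Mmp7 did not.

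These values rest on few cells, since 1, 15 and 8 positive cells of Treg_aIL10R and 0, 8 and 1 of Treg gave at least 1% of their UMIs to the Paneth cell list. Pdgfa fell by 0.53 on the log2 scale, from 456, 146 and 266 CPM in Treg to 403, 96.7 and 155 CPM in Treg_aIL10R. Among other genes of the IFNγ response, Psmb8 and Irf1 were not called. Psmb8 was at 119, 179 and 230 CPM in Treg_aIL10R and 72.9, 171 and 140 CPM in Treg (0.42 ± 0.10, adjusted p = 0.40), and Irf1 at 73.5, 76.5 and 82.1 CPM against 34.1, 77.6 and 45.8 CPM (0.44 ± 0.15, adjusted p = 1.0). None of 18 class I, 11 other class II and 6 immunoproteasome genes passed by edgeR, with 1, 4 and 3 of them higher and none lower at an unadjusted p under 0.05. Over all 11252 genes, 150 were higher and 107 lower at that limit. DESeq2 called 2 genes up and 1 down, and without replicate 1 there were 4 and 1, without replicate 2 135 and 47.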

How the data were processed

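UMI counts per gene and hashtag counts of 5 droplet libraries were used as deposited by the authors, who made them with Cell Ranger 7.0.0 on mm10 and used Seurat 4.0.5. A sixth library, left out by the authors, was not used here. Hashtags were called per library with HTODemux (Seurat 5.3.0, centred log-ratio values, quantile 0.99), which also removed doublets of 2 hashtags. No other doublet caller was run. Kept barcodes had between 10000 and 90000 UMIs, between 3000 and 10000 genes and no more than 8.5% of UMIs from mitochondrial genes. UMIs were summed per replicate and kind of cell and tested with edgeR 4.0.16 (TMM, filterByExpr, replicate block), tested on simulated data. Control cells were clustered (3000 variable genes, 30 components, Leiden at resolution 1.0), and co-culture cells were assigned by marker genes. DESeq2 1.42.0, other limits, thinning and left-out replicates were alternatives.

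Both kinds of cell of a replicate came from the same wells and libraries, and their deviations correlated (r = 0.671, 0.524 and 0.449 for positive and below-5 cells), hence the block.

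Members and gene lists were chosen with earlier results of these data known. Named genes were the 12 largest rises and falls (5 in the other comparisons) with a mean log2 CPM of at least 5 and the same direction in each replicate, and of each list the 4 most abundant members, with all class II and T cell or antigen-presenting cell markers. Others named here were chosen after their values were seen. Some genes of these lists count in the list totals and are not reported here.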

Additional observations from a re-analysis of the deposited data

How the results depend on the processing

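For positive against below-5 cells (425 genes up, 885 down), DESeq2 gave 236 and 451, Treg alone 187 and 535 and Treg_aIL10R alone 92 and 336. Sums per replicate and hashtag gave 743 and 1107, below-5 cells drawn to depth 266 and 533 and drawn to cluster 173 and 133. Cells chosen after thinning to 10000 UMIs (at least 2 UMIs of the 4 genes against 0, full counts summed) gave 181 and 346. That fit changed both the depth at which cells were chosen and the limit. Leaving out 1 replicate gave 295 to 517 up and 558 to 937 down. For Treg_aIL10R against Treg (14 and 2), DESeq2 gave 2 and 1, no filter on low counts 82 and 19, and left-out replicates 4 to 135 and 1 to 47. Against cytokine-stimulated cells (0 and 1), DESeq2 gave 98 and 332, no filter 110 and 356, left-out replicates 0 to 103 and 1 to 313. For below-5 against control cells (11 and 0), DESeq2 gave 100 and 10, no filter 547 and 106, left-out replicates 0 to 259 and 0 to 41. The causes were not tested. Leaving out cells of the highest depth or with the cytokine hashtag in second place were alternatives chosen after seeing the data, and they gave 329 and 697, and 348 and 747.

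Without the replicate block, positive against below-5 cells gave 0 and 0, Treg_aIL10R against Treg 0 and 0, and below-5 against control cells 1 up.

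Drawn to cluster, the log2 change reversed for Ascl2 (-0.046), Cenpf (-0.057), Fabp1 (0.081), Fabp2 (0.089), Guca2b (0.011), Rbp2 (0.063) and Sis (0.19). Over left-out replicates, Treg_aIL10R against Treg ranged for Apoa1 from -0.42 to 1.51 and for Apoa4 from -0.57 to 0.97. The mean share of positive cells at a limit of 3 UMIs was 0.488% in Ctrl, 0.399% in Treg_aIFNg and 0.614% with both antibodies. After thinning to 10000 UMIs, at a limit of 2, it was 0.177% in Ctrl and 0.452% in Treg_aIFNg. Mean shares in Treg, Treg_aIL10R and the cytokine wells moved by less than the SD over replicates, which is wide, and single replicates moved more: Treg was at 9.65%, 63.0% and 26.2% at a limit of 3 UMIs and at 2.84%, 45.1% and 12.4% at a limit of 10. Treg_aIL10R was higher than Treg in each replicate at both limits.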

Other observations

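Of 29 tested genes on a list of mTORC1 signaling, 11 fell and none rose by edgeR in positive against below-5 cells (median -0.14), where 6.56% of all genes fell. The other 18 were not called, and 10 of the 29 had a change above 0. Below-5 cells were themselves higher than control cells in this list (median 0.18, 27 of 29 above 0, none called). There 19 were higher and 0 lower at an unadjusted p under 0.05, where 1051 of 13687 genes were higher. Positive cells were not tested against control cells. Aldoa, the glycolytic aldolase, was at 323, 1064 and 731 CPM in positive cells of replicates 1, 2 and 3 and at 455, 1249 and 866 CPM in below-5 cells, a change of -0.32 ± 0.06 (log2 ± SE, adjusted p = 0.0053). Pgk1 of the same list and Ldha, from a list of MYC targets, each changed by -0.25 ± 0.05, and both calls were lost without replicate 3. When below-5 cells were drawn to the clusters of the positive cells, 8 of 29 mTORC1 genes were called lower (1.08% of all genes were), with Aldoa at -0.19, Ldha at -0.17 and Pgk1 at -0.22. Replicate 1 stood at lower levels of Aldoa than the other replicates in both kinds of cell.

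Of 28 tested MYC targets 4 rose and 1 fell (median 0.14), where 3.15% of all genes rose and 6.56% fell, with Ncl (0.17 ± 0.06) and Npm1 (0.13 ± 0.04) not called. With below-5 cells drawn to the clusters of the positive cells 0 of 28 rose and 1 fell (median -0.00072). Drawn to depth, 0 rose and 1 fell as well (median 0.094). Of 10 tested host defense genes 2 rose and 2 fell, and with below-5 cells drawn to clusters 1 of 9 rose and 0 fell. Duox2, an oxidase at the epithelial surface, was at 10.8, 4.26 and 4.08 CPM against 6.72, 3.03 and 2.95 CPM (0.56 ± 0.13), which was lost without replicate 1, and the lectin Reg3g was at 36.4, 16.2 and 19.4 CPM against 57.0, 16.8 and 46.2 CPM (-0.63 ± 0.16), which was lost without replicate 1 as well. Pigr, the antibody transporter, did not pass (-0.03 ± 0.05). Of 12 tested immediate-early and heat shock genes 4 fell and none rose by edgeR (6.56% of all genes fell), with Fos at -0.22 ± 0.05, lost without replicate 2 or 3. These falls depended on the comparison cells. Drawn to clusters 1 of 12 rose and 0 fell (1.08% of all genes fell), and drawn to depth 1 rose and 1 fell. The 1 tuft cell gene tested, Pou2f3, differed by 0.02 ± 0.19.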
